A study of Homo sapiens with 6 samples.

Results

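MINK1, 3 further STE20-type kinases of the MAP4K kind (TNIK, MAP4K4 and MAP4K5) and 5 genes of the Hippo pathway (the kinases STK3, STK4, LATS1 and LATS2 and the coactivator YAP1) were described in LNCaP cells with and without dihydrotestosterone (DHT). Members were all probe sets annotated to exactly 1 gene of a list of 10, which gave 9 of 19775 genes and 36 of 54675 probe sets. The listed kinase MAP4K3 was not analysed here. LNCaP is an androgen-responsive line from a human prostate cancer metastasis, and all results are from this 1 line. The DHT group was 3 cultures given the androgen DHT at 100 nM for 48 h. The control group was 3 cultures without it, and the sources used here do not state what they received instead. Both groups had first been deprived of steroids for 3 days, in RPMI lacking phenol red and with 10% stripped serum. Each culture was read on 1 Affymetrix array as MAS5 signal, a linear intensity in arbitrary units. The list was chosen on the DHT minus control difference. MINK1 entered it because it was among the largest falls with DHT in these same arrays, and the other genes were taken as its relatives with the results known, so the DHT difference of every member is a description and no p-value is given for it.

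STE20 kinases are named after a yeast kinase of the mating pathway, and in animals many of them sit at the top of kinase cascades. In the Hippo pathway the kinases STK3 and STK4, also called MST kinases, phosphorylate LATS1 and LATS2, and the LATS kinases phosphorylate YAP1, which holds this coactivator of TEAD transcription factors in the cytoplasm. Kinases of the MAP4K kind can phosphorylate the LATS kinases in parallel with the MST kinases, and they are also known as upstream activators of the JNK kinase cascade. YAP1 drives growth and stem cell genes in many epithelia.

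Promoter sequence is shown for MINK1, around which the list was built, and for YAP1 and LATS2, a substrate and a kinase at the end of the Hippo cascade. The brightest probe sets of YAP1 and LATS2 lay apart from the controls in opposite directions on the deposited scale, and the LATS2 mean difference turned negative with spike scaling, which is explained with the arrays. The letters are the 250 bases before the start of the gene, from RefSeq on build GRCh38.p14, in lower case with capitals at each match to GGGCGG (the GC box), GGAATG (the core letters bound by TEAD factors) and TGTTCT (1 arm of the androgen response element) on either strand. The MINK1 window is chr17:4833090-4833339 on the plus strand, the YAP1 window chr11:102110197-102110446 on the plus strand and the LATS2 window chr13:21061587-21061836 on the minus strand.
MINK1: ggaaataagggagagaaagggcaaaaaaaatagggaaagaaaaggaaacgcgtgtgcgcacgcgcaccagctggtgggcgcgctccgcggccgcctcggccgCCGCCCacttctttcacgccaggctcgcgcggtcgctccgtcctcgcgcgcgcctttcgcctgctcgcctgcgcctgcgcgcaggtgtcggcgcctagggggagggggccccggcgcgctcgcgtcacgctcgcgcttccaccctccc
YAP1: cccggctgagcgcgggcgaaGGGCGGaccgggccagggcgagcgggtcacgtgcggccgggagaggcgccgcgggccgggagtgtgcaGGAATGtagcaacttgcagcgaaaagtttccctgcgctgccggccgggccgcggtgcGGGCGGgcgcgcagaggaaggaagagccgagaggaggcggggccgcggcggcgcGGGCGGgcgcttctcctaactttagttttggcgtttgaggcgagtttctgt
LATS2: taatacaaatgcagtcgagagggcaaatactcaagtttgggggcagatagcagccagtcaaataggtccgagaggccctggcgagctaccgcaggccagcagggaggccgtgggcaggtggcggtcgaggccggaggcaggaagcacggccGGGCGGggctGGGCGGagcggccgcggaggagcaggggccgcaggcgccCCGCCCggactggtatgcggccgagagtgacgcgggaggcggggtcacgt
MINK1 had 1 GC box, read on the reverse strand and starting 148 bases before the gene, and no match to either other motif. YAP1 had 3 GC boxes and 1 GGAATG, which started 162 bases before the gene. LATS2 had 3 GC boxes. Of the 9 genes, 8 had an entry in the promoter table, with 11 windows in all. GGGCGG was present in 9 of these windows, against 42.6% of 35116 windows of all promoters. The 2 TNIK windows overlap almost entirely and hold the same GC box, so that site is counted more than once. The GC content of the member windows was 66.0% to 73.2%, apart from 29.2% in 1 LATS1 window, against a median of 58.0% over all windows. GGAATG was present in the YAP1 window alone, against 11.9% of all windows. TGTTCT was present in 2 windows, once for MAP4K5 and 2 times in 1 of the LATS1 windows, against 12.4% of all windows. The palindromic androgen response element with both arms was in none of the 11 windows and in 1 window of all promoters. The 3 windows shown were rich in CpG pairs, with 38 in MINK1, 36 in YAP1 and 25 in LATS2, against a median of 11 over all windows. Both TNIK windows had 15. The LATS1 window with the TGTTCT matches had 2 CpG pairs. A match is a run of letters and says nothing about binding.

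All arrays had the same mean signal of 100.03 after trimming 2% at both ends, so each difference is relative to an array's average transcript. The fit was limma on log2(signal + 16) over the 32768 probe sets with a mean signal above 17.3, and 31 of the 36 member probe sets were in it. The hybridisation spikes, control transcripts added before hybridisation, averaged a signal of 1134 ± 107 on DHT arrays and 773 ± 60.8 on control arrays (SD, n = 3 each). With the arrays set to these spikes every log2 difference is lower by 0.55. The median over all tested probe sets is then -0.54 in place of 0.01, and every member difference is below 0. The spikes enter after labelling and do not measure the mRNA of the cells, so this scaling cannot decide the direction of a difference. For ACTB, the 3'/5' signal ratio, which tracks RNA integrity and labelling, was 1.77 ± 0.07 on DHT arrays and 1.37 ± 0.05 on control arrays, and for GAPDH it was 1.06 ± 0.05 on DHT arrays and 0.904 ± 0.044 on control arrays. The groups did not overlap in either ratio, and the part of this shift in the differences below was not tested. Of 9 luminal prostate markers, 7 were read and all 7 were above the signal limit, with a summed signal of 17884 to 18953 with DHT and 7423 to 7922 in the controls. That sum was carried by androgen-induced genes such as KLK3 (means of 8985 with DHT and 2186 in the controls) and TMPRSS2 (2064 with DHT and 304 in the controls), while HOXB13 averaged 1203 with DHT and 1556 in the controls, and KRT8 437 with DHT and 595 in the controls. Of 14 read markers of other cell types, none of 3 basal markers, 3 of 5 fibroblast markers, 1 of 3 leukocyte markers and 2 of 3 endothelial markers were above the limit, and no group mean was at 0. The summed fibroblast signal was 184 to 251 with DHT and 278 to 279 in the controls, the leukocyte sum 13.6 to 37.5 with DHT and 32.2 to 60.9 in the controls, the endothelial sum 200.2 to 262 with DHT and 191 to 204 in the controls, and the basal sum 22.8 to 31.8 with DHT and 7.74 to 24.5 in the controls. The part of these markers in the results was not tested. In bulk RNA, fewer cells with a transcript and less of it per cell cannot be told apart.

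MINK1 signal was lower with DHT in all 4 of its probe sets, by widely different amounts. MINK1 is a misshapen-like kinase, related to Drosophila Misshapen. Probe set 214625_s_at, whose suffix marks probes that several transcripts can share, read 23.4, 5.93 and 7.86 on the DHT arrays, against 69.4, 104 and 84.4 on the control arrays. Every DHT array lay below every control array. Its mean was 12.4 ± 9.55 with DHT and 85.8 ± 17.2 in the controls (SD, n = 3 each), a log2 difference of -1.88 ± 0.25 (limma's SE). Since 2 of the 3 DHT values were below the signal limit of 17.3, where MAS5 values are unreliable, the size of this difference is set largely by the pseudocount. It was -2.91 with a pseudocount of 1 and -0.97 with one of 64.

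The other 3 MINK1 probe sets end in _x_at, the suffix for probes that also match other transcripts. Probe set 209241_x_at read 96.3, 61.2 and 76.1 on the DHT arrays, against 127, 177 and 186 on the control arrays, a difference of -0.93 ± 0.17. Probe set 215909_x_at read 124, 93.4 and 99.6 on the DHT arrays, against 146, 183 and 166 on the control arrays, a difference of -0.58 ± 0.13. In both, the groups did not overlap. The brightest, 214246_x_at, read 375, 260 and 353 on the DHT arrays, against 424, 367 and 402 on the control arrays, a difference of -0.27 ± 0.12. There DHT replicate 1 lay within the control range. DHT replicate 1 was the highest of the DHT arrays in all 4 probe sets. Without DHT replicate 2 the difference of 214246_x_at was -0.12.

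**Figure D1:**
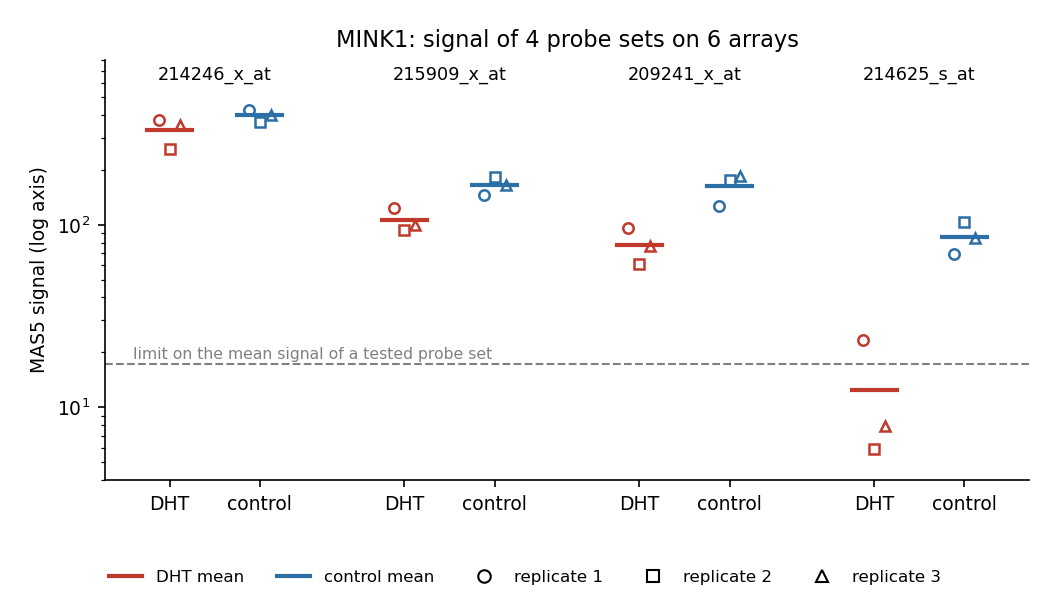
MAS5 signal (log axis) of the 4 MINK1 probe sets on the 3 DHT and 3 control arrays, with symbols for replicates, bars for group means and a dashed line at the signal limit of 17.3. The groups overlap in the brightest probe set on the left and lie apart in the other 3, and in the dimmest on the right the DHT mean of 12.4 is below the line.

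MAP4K4 and TNIK are the closest relatives of MINK1 among the members. MAP4K4, a kinase known from stress and cell migration pathways, was lower with DHT in 4 of its 5 probe sets. The brightest, 206571_s_at, read 94.0, 110 and 74.8 on the DHT arrays, against 176, 133 and 185 on the control arrays. The groups did not overlap, and the difference was -0.73 ± 0.15. A pair of further probe sets also had every DHT array below every control array, with smaller differences of -0.26 ± 0.12 for 222547_at and -0.23 ± 0.12 for 218181_s_at. In 222548_s_at (-0.30 ± 0.18) the groups overlapped, and control replicate 3 read 117 beside 73.8 and 71.3 on the other control arrays. Without control replicate 3 the difference was -0.11. The dimmest, 1558732_at, had a difference of the other sign, 0.43 ± 0.27 at a mean signal of 23.2.

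TNIK, a kinase that acts with beta-catenin and TCF factors in Wnt signalling, had a mean difference above 0 in all 4 probe sets on the deposited scale and below 0 in all 4 with spike scaling. Its brightest probe set, 213107_at, read 67.7, 82.7 and 72.7 on the DHT arrays, against 50.4, 103 and 69.6 on the control arrays. The DHT arrays lay inside the control range, and the difference was 0.04 ± 0.20. A second probe set of nearly equal signal, 213109_at, read 75.0, 93.0 and 94.2 on the DHT arrays, against 69.5, 49.1 and 57.7 on the control arrays, and its groups did not overlap (0.47 ± 0.16, or -0.08 with spike scaling). The third, 211828_s_at, had 0.09 ± 0.16, and 239288_at (0.47 ± 0.29) was below the signal limit. MAP4K5, another activator of the JNK cascade, had differences of -0.10 ± 0.12, -0.08 ± 0.13 and -0.28 ± 0.20 in its 3 probe sets. The groups overlapped in each of them. Its brightest, 203552_at, read 117, 126 and 109 on the DHT arrays, against 127, 111 and 142 on the control arrays.

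**Figure D2:**
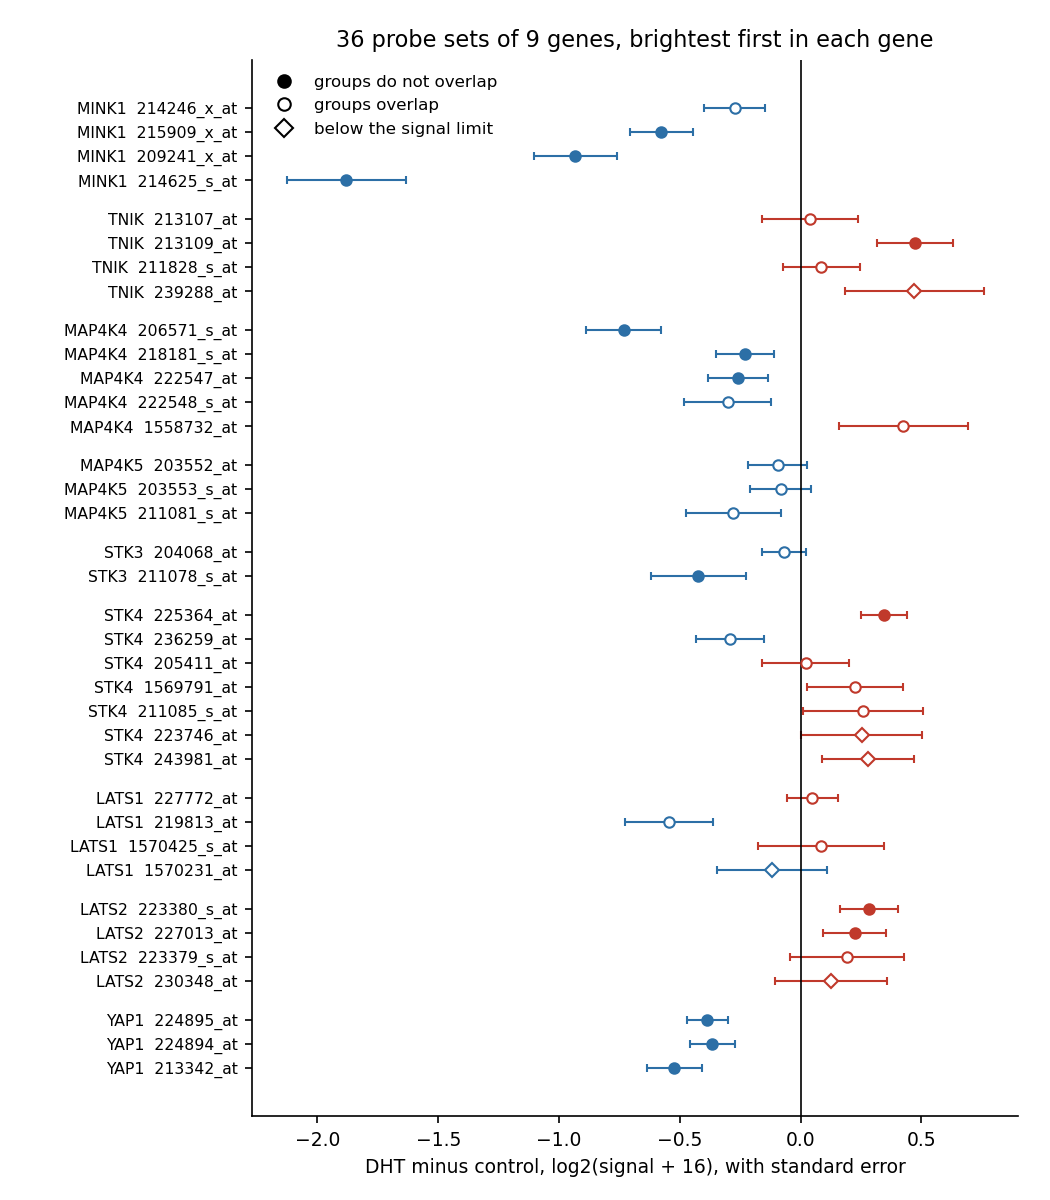
DHT minus control on log2(signal + 16) with limma's standard error for all 36 probe sets of 9 genes, brightest first within each gene. Red points are above 0 and blue below, filled points mark groups that do not overlap, and diamonds are the 5 probe sets below the signal limit. All points of MINK1, MAP4K5, STK3 and YAP1 lie below 0 and all TNIK and LATS2 points above it, where spike scaling would move every point 0.55 to the left and put all below 0.

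The MST kinases at the head of the Hippo cascade had differences of both signs on the deposited scale. STK4 was read by 7 probe sets. The brightest, 225364_at, read 208, 222 and 198 on the DHT arrays, against 166, 159 and 159 on the control arrays. All DHT arrays lay above all control arrays, with a difference of 0.35 ± 0.10, which was -0.21 with spike scaling. The next brightest, 236259_at, had the opposite sign, -0.29 ± 0.14, with 83.8, 112 and 99.1 on the DHT arrays, against 116, 145 and 111 on the control arrays. Its groups overlapped. The other 5 lay between 0.02 and 0.28 with overlapping groups, and 2 of them were below the signal limit. All 6 positive STK4 differences were below 0 with spike scaling.

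STK3, the second MST kinase, had a difference below 0 in both probe sets. The brighter, 204068_at, read 282, 316 and 298 on the DHT arrays, against 319, 289 and 336 on the control arrays. These ranges overlapped, with a difference of -0.07 ± 0.09. The dimmer, 211078_s_at, read 39.7, 40.4 and 38.1 on the DHT arrays, against 51.2, 46.0 and 82.4 on the control arrays. The DHT arrays lay below the controls and close together, and the difference of -0.42 ± 0.20 included the high reading of control replicate 3. Without control replicate 3 it was -0.22.

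Of the LATS kinases, which phosphorylate YAP1, LATS2 had mean differences above 0 in all 4 probe sets on the deposited scale and below 0 in all 4 with spike scaling. Its brightest probe set, 223380_s_at, read 163, 147 and 171 on the DHT arrays, against 145, 111 and 131 on the control arrays. The groups were narrowly apart, and the difference was 0.28 ± 0.12. The second, 227013_at, read 129, 122 and 139 on the DHT arrays, against 121, 90.3 and 119 on the control arrays, again just apart (0.22 ± 0.13). The other LATS2 probe sets were dim, with differences of 0.19 ± 0.24 and, below the signal limit, 0.13 ± 0.23.

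LATS1 probe sets went both ways. The brightest, 227772_at, read 230, 239 and 227 on the DHT arrays, against 201, 216 and 258 on the control arrays. The DHT arrays lay inside the control range, with a difference of 0.05 ± 0.11. The second, 219813_at, read 62.7, 73.9 and 54.6 on the DHT arrays, against 73.6, 129 and 104 on the control arrays. There the highest DHT array and the lowest control array met, and the difference was -0.55 ± 0.18. The 2 dimmest had 0.08 ± 0.26 and, below the signal limit, -0.12 ± 0.23.

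YAP1 was lower with DHT in all 3 probe sets, by similar amounts. These were single-gene probe sets without a cross-hybridisation suffix, and all were bright, above at least 86.8% of the array's probe sets in mean signal. Probe set 224895_at read 575, 626 and 607 on the DHT arrays, against 710, 848 and 826 on the control arrays. Probe set 224894_at read 401, 460 and 463 on the DHT arrays, against 599, 512 and 611 on the control arrays. Probe set 213342_at read 221, 165 and 216 on the DHT arrays, against 283, 291 and 306 on the control arrays. Every DHT array was below every control array in each of the 3. The means were 603 ± 25.4 with DHT and 795 ± 74.4 in the controls for the brightest (-0.39 ± 0.08), 441 ± 34.9 with DHT and 574 ± 54.3 in the controls for the second (-0.37 ± 0.09), and 201 ± 31.2 with DHT and 293 ± 11.9 in the controls for the third (-0.52 ± 0.11). The control signal was 1.30 to 1.46 times the DHT signal. WWTR1, the paralogue of YAP1 also known as TAZ, was below the signal limit in all 3 of its probe sets.

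**Figure D3:**
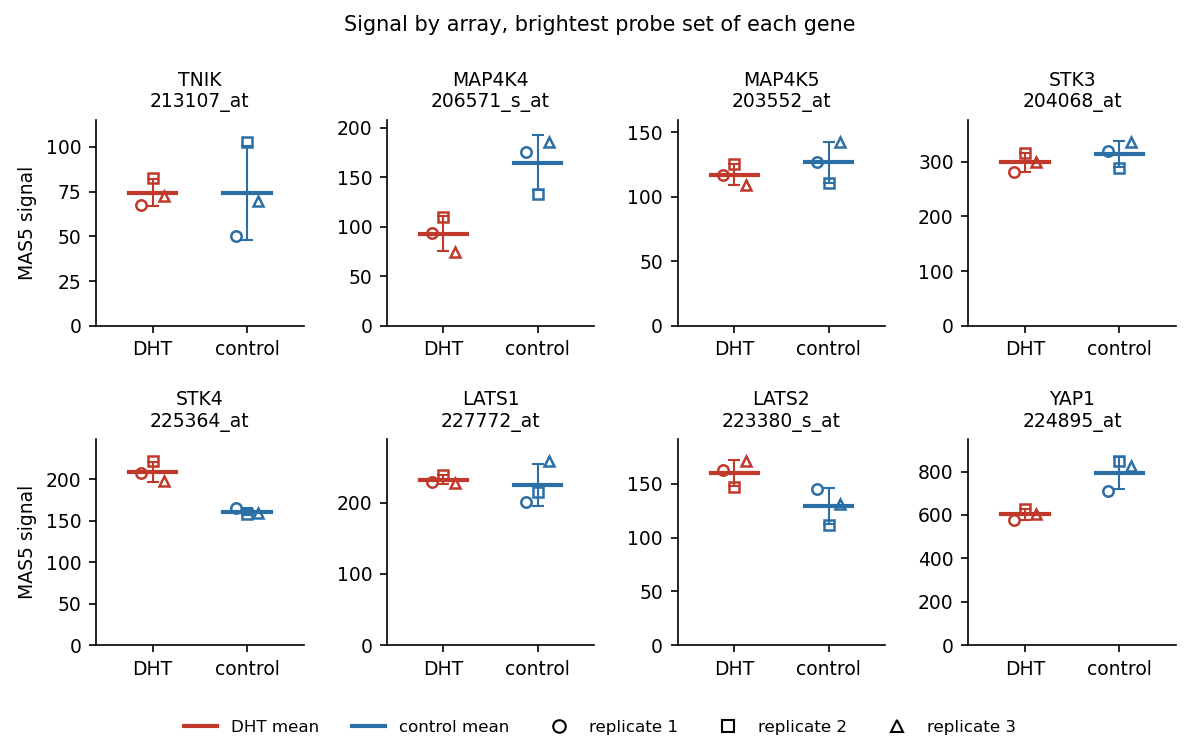
MAS5 signal (linear axis from 0) of the brightest probe set of 8 members on the 3 DHT and 3 control arrays, with symbols for replicates, horizontal bars for group means and vertical bars for SD. DHT arrays lie below the controls for MAP4K4 and YAP1, above them for STK4 and LATS2, whose differences turn negative with spike scaling, and among them for TNIK, MAP4K5, STK3 and LATS1.

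At an adjusted p of 0.05 over all 32768 probe sets, limma called 7 of the 31 tested member probe sets lower and 1 higher, against 5.25% of all tested probe sets lower and 5.09% higher (10.3% in all). The 7 were 3 of MINK1, 1 of MAP4K4 (206571_s_at) and all 3 of YAP1, and the higher one was STK4 225364_at. Since the list was built around this contrast, nothing is read from that count. The groups did not overlap in 10 tested member probe sets with DHT below and 4 with DHT above, against 13.8% below and 15% above among all tested probe sets (28.7% in all). Nothing is read from this count either, since it rests on the same contrast and several of these probe sets share a gene. By role, the median difference was -0.26 over 15 tested probe sets of the MAP4K-type kinases, 0.02 over 7 of the MST kinases, 0.14 over 6 of the LATS kinases and -0.39 over 3 of YAP1, beside 0.01 over all probe sets tested. The 15 include the 4 of MINK1, the gene chosen for its fall, and probe sets of 1 gene are not independent, so nothing is read from these medians. Over all 27 tested member probe sets other than those of MINK1 the median was -0.07. Without control replicate 3 the calls among members were 2 lower and 0 higher. Leaving out each array in turn moved the difference of 23 of the 36 member probe sets by over 1.5 times at least once. It turned the sign of 7, all small or dim (in TNIK, MAP4K5, STK4, LATS1 and LATS2), and did neither in the 8 that were called. Those 8 were called for large differences against their spread on these same arrays, so nothing is read from their steadiness. Over the whole array 1669 probe sets were called higher and 1719 lower, with 880 higher and 1498 lower at equal array medians and 191 higher and 19767 lower with spike scaling.

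The genes whose readings followed MINK1 most closely across the 6 arrays were PUS3, a tRNA pseudouridine synthase, POM121C of the nuclear pore, RBM8A of the exon junction complex, PRKACA, the catalytic subunit of protein kinase A, RMND5A of a ubiquitin ligase, and the secreted trefoil peptide TFF3. They were taken by Pearson's r to probe set 214625_s_at over 6 arrays among 14268 other genes, with r of 0.994 to 0.997. This was the dimmest MINK1 probe set, and its DHT values of 5.93 and 7.86 were below the signal limit. Its r to the brightest MINK1 probe set, 214246_x_at, was 0.706, so the likeness is to this probe set alone. The arrays form 2 groups, so a high r mostly says that a gene was lower on all DHT arrays, with DHT replicate 1 nearest to the controls. Their differences were between -0.14 (PUS3) and -0.78 (PRKACA).

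Around the members, 97 genes in 6 lists were set down from textbook knowledge, with earlier results of these data known. Of the 97, 72 were tested, 19 were below the signal limit and 6 were not analysed here. Each tested gene was read from its brightest tested probe set, with an _x_at one used only where no other passed the limit. Of the 72 tested genes, 4 rose and 6 fell (limma, adjusted p of 0.05 over probe sets), and 62 did not pass. Of the 62, 5 had another probe set that was called, higher for TAOK1 and TEAD1 and lower for SAV1, MAP2K4 and MAPK8. That compares with 6.47% higher and 5.42% lower (11.9% in all) over all 14269 genes, of which 13.8% were higher and 12.1% lower at an unadjusted p under 0.05. The median difference was 0.00 beside 0.02 over all genes. Among 16 other tested STE20 kinases 2 rose and 1 fell. PAK2, a kinase activated by the GTPases RAC and CDC42, read 400, 371 and 364 on the DHT arrays, against 635, 670 and 766 on the control arrays (-0.84 ± 0.09; limma adjusted p = 0.00019). STK39, which with OXSR1 controls chloride cotransporters, read 561, 398 and 486 on the DHT arrays, against 253, 241 and 262 on the control arrays (0.88 ± 0.11; limma adjusted p = 0.000702). Both lay apart from their controls on all arrays and passed with each array left out in turn, and STK39 did not pass with spike scaling (0.33, limma adjusted p = 0.089). OXSR1 rose by 0.27 ± 0.08 (limma adjusted p = 0.0493), but did not pass with any array left out (adjusted p = 0.0808 to 0.137) and was at -0.28 with spike scaling.

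Of 14 tested Hippo adaptors and upstream regulators, RASSF1, a scaffold that binds the MST kinases, fell by 0.57 on the log2 scale (limma adjusted p = 0.0248), and none rose, with 1 at an unadjusted p under 0.05 in each direction. The adaptors NF2 (0.15), SAV1 (-0.05), MOB1A (0.03) and MOB1B (0.05) did not pass. For SAV1, which couples the MST and LATS kinases, 2 dimmer probe sets were lower with groups apart, 234491_s_at at -0.44 and 218276_s_at at -0.49 (limma adjusted p = 0.032 and 0.0238). Of 11 tested members of the STRIPAK phosphatase complex, which dephosphorylates STE20 kinases, the striatins STRN (-0.54, adjusted p = 0.0263) and STRN4 (-0.65, adjusted p = 0.0198) fell and none rose, with 0 higher and 3 lower at an unadjusted p under 0.05. None of 5 tested nuclear partners of YAP1 passed, nor was any at an unadjusted p under 0.05. Among them TEAD1 had -0.09 and TEAD4 0.23. RASSF1 did not pass without any one array except DHT replicate 2 (limma adjusted p = 0.0529 to 0.0817), STRN without any one except DHT replicate 3 (0.057 to 0.0897) and when its probe sets were averaged (-0.20, limma adjusted p = 0.421), and STRN4 without DHT replicate 2 or 3 or control replicate 1 or 3 (0.0532 to 0.0908).

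Of 21 genes known from other cells as YAP1 targets, 12 were tested, 2 rose and none fell. CCN2 and ANKRD1, which are widely used as YAP1 readouts, were below the signal limit, and CCN1 had -0.03 ± 0.13. The risen genes were the RAC activator DOCK5 (0.59 ± 0.13, limma adjusted p = 0.016) and the phosphatase PTPN14 (0.55 ± 0.15, limma adjusted p = 0.0344), which itself binds YAP1. AMOTL2 had -0.42 ± 0.13 and GADD45A -0.30 ± 0.12, and neither passed (adjusted p = 0.0706 and 0.157). At an unadjusted p under 0.05 there were 3 higher and 2 lower. DOCK5 did not pass without DHT replicate 1 or 3 or control replicate 2 (limma adjusted p = 0.0561 to 0.0642), PTPN14 without DHT replicate 2 or 3 or control replicate 1 or 3 (0.097 to 0.127). With probe sets averaged per gene neither passed (0.31 for DOCK5 and -0.01 for PTPN14), and with spike scaling they were at 0.04 and 0.00.

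In the JNK cascade, which kinases of the MAP4K kind activate, 2 of 14 tested genes fell and none rose, with 3 in each direction at an unadjusted p under 0.05. The kinase MAPK9 read 239, 258 and 229 on the DHT arrays, against 319.6, 313 and 321 on the control arrays (-0.38 ± 0.09; limma adjusted p = 0.0173). JUN, the transcription factor phosphorylated by these kinases, read 113, 142 and 119 on the DHT arrays, against 164, 186 and 196 on the control arrays (-0.50 ± 0.12; limma adjusted p = 0.0211). MAPK8 had 0.35 ± 0.10 in its brightest probe set and did not pass (adjusted p = 0.054), while 2 of its probe sets open to cross-hybridisation had -0.57 (limma adjusted p = 0.0244) and -0.44 (adjusted p = 0.146). MAP2K4, a kinase that phosphorylates JNK, had -0.18 in its brightest probe set (limma adjusted p = 0.275) and -0.62 ± 0.11 in a second of similar signal, 203265_s_at, whose groups lay apart (limma adjusted p = 0.00532). A second MAPK9 probe set, open to cross-hybridisation, was also lower (-0.48, limma adjusted p = 0.0154), and the third had 0.23. None of the other 3 JUN probe sets passed (-0.23, 0.12 and -0.04). The first of these, 201464_x_at, was the brightest JUN probe set, with a mean signal of 799 beside 150 for the one read. Its limma adjusted p was 0.0604. With probe sets averaged per gene neither MAPK9 nor JUN passed (adjusted p = 0.188 and 0.323). MAPK9 did not pass without DHT replicate 3 or control replicate 3 (limma adjusted p = 0.0601 and 0.0621), nor JUN without DHT replicate 1 or 3 or control replicate 2 or 3 (0.0649 to 0.0882).

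**Figure D4:**
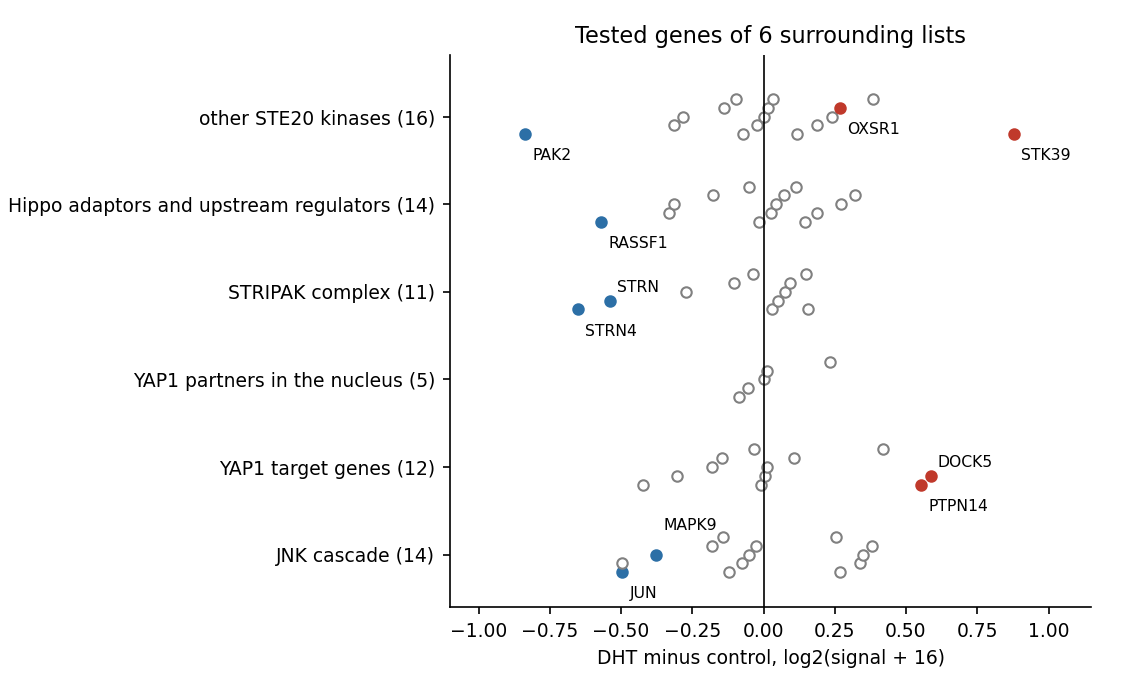
DHT minus control on log2(signal + 16) for the 72 tested genes of 6 surrounding lists, with the number tested in brackets. Filled points passed limma's adjusted p of 0.05, 6 lower in blue and 4 higher in red (OXSR1 is below 0 with spike scaling), and open points did not.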

How the data were processed

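Total RNA of 6 LNCaP cultures was extracted with a silica column kit, labelled with biotin and read on 1-colour Affymetrix arrays (labels' protocols). The values deposited by the authors are linear intensities, and the submitters' processing notes name MAS5, whose version is not stated there. Their common scale removes any change in total mRNA. Groups came from sample titles, and 0 sample columns were unused. The labels call the cultures biological replicates without saying whether they were grown separately, so p-values measure the spread between these samples.

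Of 54675 probe sets, 62 array controls were left out, and 41091 of the rest name 1 gene. Counted over all probe sets with the controls included, 1801 name several genes and 11777 are unnamed here. Symbols were checked by gene identifier against GRCh38.p14, which matched 41043. Probe sets in the lowest 40% of mean log2(signal + 16) were not tested. limma 3.58.1 in R 4.3.3 (lmFit, eBayes with an intensity trend) gave differences, standard errors and Benjamini-Hochberg adjusted p-values over 32768 probe sets, on 4 residual degrees of freedom (11.4 with the shared variance). For member probe sets below the limit, the standard error is from a fit without it. A gene was read from its brightest tested probe set, _x_at only where no other passed. For named genes, the rule was every member, every list gene that passed (at most 4 per list) and the 6 genes most like MINK1. List genes that did not pass, and the replicate or probe set remarks, were chosen after their values were seen. Members and lists were chosen with earlier results of these data known. The fit was tested on simulated data. Motifs were searched with Python 3.11.15 and pandas 2.3.3.

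Alternatives were pseudocounts of 1 and 64, no filter or the lowest 60% left out, quantile normalisation, equal medians, spike scaling, the replicate block, no trend, probe sets averaged per gene, and each array left out.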

Additional observations from a re-analysis of the deposited data

How the results depend on the processing

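Quantile normalisation, pseudocounts of 1 and 64 and the 60% filter kept every count of calls within 1.5 times of its value. Equal array medians gave 880 probe sets higher over the array, 2 list genes higher and 0 member probe sets higher. Spike scaling gave 191 probe sets higher and 19767 lower, 0 list genes higher and 51 lower, and 0 member probe sets higher and 22 lower, by its construction as a constant shift. It turned STK4 225364_at to -0.21 and OXSR1 to -0.28. Without the variance trend the counts were 661 higher and 603 lower over the array, 1 and 1 for list genes, and 0 and 2 for members. Without the filter on dim probe sets 2 list genes and 0 members were higher, and with probe sets averaged per gene 2 list genes were higher and PTPN14 was at -0.011. Of the list genes, PAK2 and STK39 alone passed without the trend, and RASSF1, STRN and PTPN14 were among those lost without the filter (limma adjusted p = 0.0523, 0.0509 and 0.0727). Same-numbered replicates did not deviate together (r = -0.03 to -0.00), so no pairing by number was seen, which with 3 arrays per group does not show that there was none. The replicate number as a block gave 0 members higher, with 1510 probe sets higher and 1604 lower over the array. Leaving out each array in turn gave 1039 to 1372 probe sets higher and 980 to 1312 lower over the array, 1 to 2 list genes higher and 1 to 5 lower, and 0 members higher and 2 to 7 lower. Where no construction is named, the cause was not tested. The MINK1 difference of 214625_s_at stayed between -2.14 and -1.72 with any array left out. The 3 cultures per group and unreliable MAS5 values near background limit every size given, and most of all those of dim probe sets. Probe positions in the transcripts were not used here.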

Other observations

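The PAK2 fall varied between its probe sets. The 5 tested ones had log2 differences of -1.26, -0.93, -0.84, -0.31 and -0.12, and 3 of them passed (limma adjusted p = 0.00548, 0.000523 and 0.00019). TEAD1, a DNA-binding partner of YAP1, had -0.09 in its brightest probe set but 0.76 ± 0.18 in 214600_at (limma adjusted p = 0.0194), which averaged 65.0 ± 5.99 on the DHT arrays and 32.1 ± 7.19 on the control arrays (SD, n = 3 each), with no overlap. This probe set was chosen after its values were seen. WWTR1 probe set 202133_at, below the signal limit, read 15.0, 25.1 and 22.6 on the DHT arrays, against 0.371, 8.04 and 9.24 on the control arrays. It too was chosen after its values were seen. Of the other WWTR1 probe sets, also below the limit, 202132_at had a difference of 0.61 with groups apart. The last, 202134_s_at, had 0.04 with overlapping groups.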
